A study of Homo sapiens with 6 samples.

Results

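Cystine uptake and glutathione metabolism was followed through 10 genes, picked by symbol, among the 60617 gene rows of an RNA sequencing experiment in NCI-H1299 cells. The genes are SLC7A11, SLC3A2, GCLC, GCLM, GSS, GSR, GPX4, CHAC1, CTH and CBS. Each matched 1 row by its Ensembl identifier, and all 10 had enough reads to be tested. NCI-H1299 is an established human lung cancer line, here labelled lung adenocarcinoma. The knockdown group is 3 libraries titled Sh1 whose genotype is given as FuHsi knockdown. The control group is 3 libraries titled Puro whose genotype is given as wild type. Both groups grew in the same serum-containing RPMI1640 medium with antibiotics. The labels do not spell out Sh1 or Puro, give 1 knockdown title and 1 line, and do not say that replicates came from separate cultures, so p-values measure only the spread between these libraries, which may be technical. The series set out to profile RNA after loss of FuHsi, in relation to the nucleolus. The level of FuHsi itself is not analysed here.

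Glutathione is a tripeptide of glutamate, cysteine and glycine, and cysteine is usually the scarce part. Cells take up its oxidised dimer, cystine, through an exchanger that gives out glutamate, or make cysteine from methionine by transsulfuration. Glutathione is built by glutamate-cysteine ligase and glutathione synthetase, is kept reduced by glutathione reductase, is spent by peroxidases, and is broken down by gamma-glutamyl enzymes. In human and mouse cells the amino acid stress factor ATF4 is known to activate SLC7A11, CHAC1 and CTH, and the oxidative stress factor NRF2, made by NFE2L2, is known to activate SLC7A11, GCLC, GCLM and GSR. Lung cancer lines often depend on this supply to hold off lipid peroxides.

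Library totals were 24231515 to 27900051 counts in the knockdown group and 30735547 to 34306849 in the control group, so every control library was deeper. Levels are CPM, counts set to a common library depth, after TMM scaling (trimmed mean of M), and differences are log2 fold changes of knockdown over control from edgeR's quasi-likelihood test, called at a Benjamini-Hochberg adjusted p under 0.05 over 17223 genes. Much of the transcriptome differed by this test, with 5295 genes higher and 5317 lower. Scaling by library size alone gave 6986 higher and 3855 lower, and moved the median log2 fold change of all tested genes to 0.18, against 0.03 with TMM. The epithelial keratins KRT8 and KRT18, 2 of 5 epithelial markers, and all 3 mesenchymal markers (VIM, CDH2 and FN1) had at least 10 counts in every library. Epithelial markers summed to 613 to 660.2 CPM in knockdown and 824 to 834 CPM in control, and mesenchymal markers to 937 to 996 CPM in knockdown and 1440 to 1491 CPM in control. Within the epithelial sum, KRT8 was lower, at 312 to 327 CPM in knockdown and 489 to 501 in control, and KRT18 overlapped. KRT19, EPCAM and CDH1 were under 10 counts in some or all libraries. Within the mesenchymal sum, VIM alone was lower, at 812 to 871 CPM in knockdown and 1338.5 to 1400.8 in control. FN1 was higher, at 51.1 to 57.9 CPM in knockdown and 27.2 to 30.6 in control, and CDH2 overlapped. Of 5 lung adenocarcinoma markers, KRT7 alone had 10 counts in every library. NKX2-1, NAPSA and SFTPB did not, and SFTPC was at 0 in all 6 libraries, so the markers of the labelled tumour type were mostly absent or near 0. The summed level of those 5 markers was 4.60 to 5.52 CPM in knockdown and 1.56 to 1.57 CPM in control. Summed blood markers were at 1.01 to 1.49 CPM in knockdown and 0.339 to 0.519 CPM in control, fibroblast markers at 2.84 to 4.43 CPM in knockdown and 1.63 to 2.74 CPM in control, and endothelial markers at 1.14 to 2.01 CPM in knockdown and 1.04 to 1.49 CPM in control. The part of these differences in the results was not tested.

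Of the 10 genes, 6 were called higher in knockdown (SLC7A11, CHAC1, CTH, CBS, SLC3A2 and GCLC), 2 were called lower (GCLM and GPX4), and GSS and GSR were not called. Over all tested genes, 61.6% were called in either direction, 30.7% higher and 30.9% lower, so a call alone sets no gene apart. A call with a rise of at least 2-fold was made for 4 of the 10 genes (SLC7A11, CHAC1, CTH and CBS), against 9.16% of tested genes. A call with a fall of at least 2-fold was made for 0 of the 10, against 3.12%. The median log2 fold change of the 10 was 0.59, against 0.03 for all tested genes. Since the 10 genes and the pathway lists were picked with earlier results of these data known, these shares and medians describe the genes and are not independent evidence of a direction. In 7 of the 10 genes the 3 knockdown values did not overlap the 3 control values, a separation seen in 65.3% of tested genes. The 3 genes whose groups overlapped were GSS, GSR and GPX4.

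**Figure D1:**
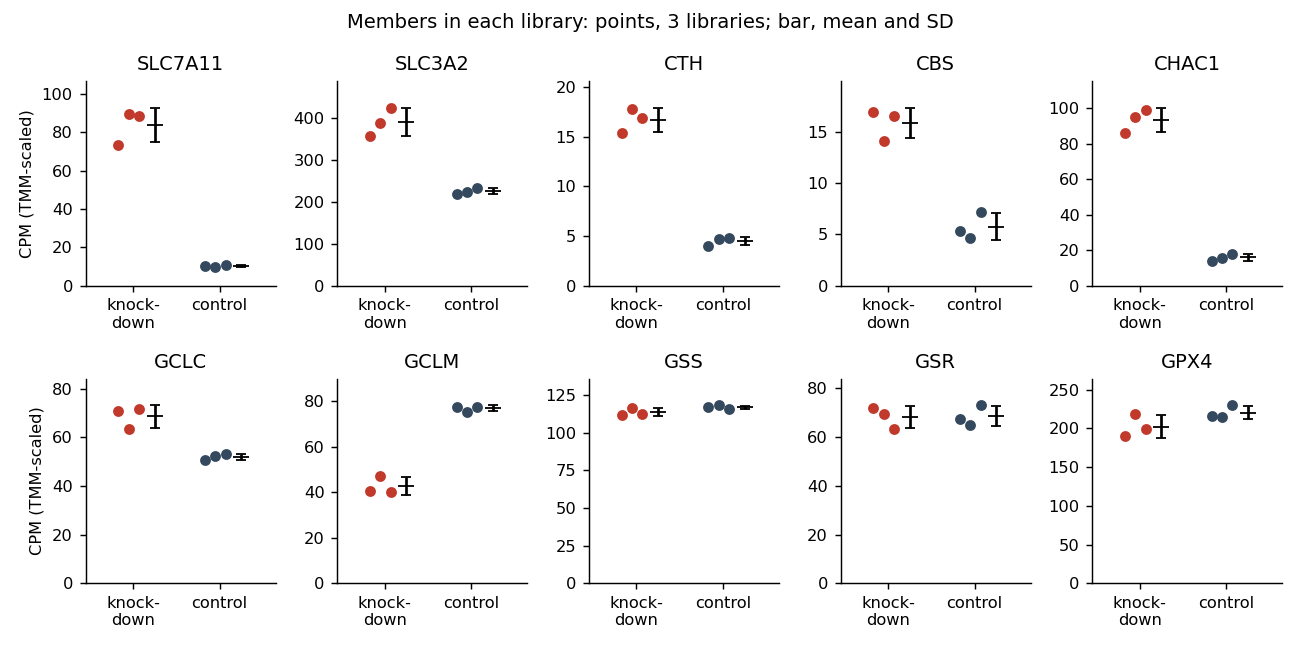
Scaled level (CPM, y axis from 0) of each of the 10 genes in the 3 knockdown and 3 control libraries; each point is a library and the bar is the mean with its SD (n = 3). SLC7A11, CHAC1, CTH, CBS, SLC3A2 and GCLC lie higher in every knockdown library, GCLM lies lower in every one, and GSS, GSR and GPX4 overlap.

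SLC7A11 (xCT) is the light chain of the cystine-glutamate exchanger, the subunit that carries the amino acids. It lies on GRCh38 chromosome 4, 138164097 to 138242349, minus strand (ENSG00000151012). Its raw counts were 2170, 2264 and 2264 in knockdown libraries and 328, 321 and 314 in control libraries. After scaling these were 73.4, 89.3 and 88.6 CPM in knockdown and 10.03, 9.89 and 10.9 CPM in control. Every knockdown library was far above every control library, and the first knockdown library was the lowest of its group. The log2 fold change was 3.03 ± 0.07 (SE), an 8.16-fold difference (adjusted p = 3.84e-37, edgeR quasi-likelihood). By the size of its change it ranked 112 among the 17223 tested genes. When tested genes were split into 5 classes of equal size by abundance, 99.9% of those in its class had a lower log2 fold change. In bulk RNA, more cells with the transcript and more transcript per cell cannot be told apart, here and in all results that follow.

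An antisense gene, SLC7A11-AS1, shares 9.0% of the exonic bases of SLC7A11. It had 29, 22 and 22 counts in knockdown and 4, 4 and 1 in control, a log2 fold change of 3.19 ± 0.56 (SE). Whether the counting used strand is not known here, so reads of this pair cannot be told apart where they overlap, although the antisense counts are a small part of those of SLC7A11.

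SLC3A2 (CD98 heavy chain, 4F2hc) is the partner that carries SLC7A11 and several other light chains to the cell surface. It lies on chromosome 11, 62856102 to 62888875, plus strand (ENSG00000168003). It was at 356, 388 and 424 CPM in knockdown and 219, 224 and 232 CPM in control. The groups did not overlap, and the smaller rise, by 0.79 ± 0.05 (SE) on the log2 scale or 1.73-fold, passed the test (adjusted p = 2.35e-11, edgeR quasi-likelihood). Set per kilobase of exon so that the genes can be compared, the level of SLC3A2 was 75.2 ± 6.53 CPM per kb in knockdown and 43.5 ± 1.34 in control (SD, n = 3), far above SLC7A11 at 8.68 ± 0.933 in knockdown and 1.06 ± 0.0548 in control. The ratio of SLC7A11 to SLC3A2 on that scale was 0.111, 0.123 and 0.112 in knockdown libraries and 0.0246, 0.0237 and 0.0251 in control libraries, a 4.71-fold difference. A ratio within a library does not depend on how libraries are scaled. An exact two-sided permutation test of this ratio gave p = 0.1, the smallest that 3 libraries against 3 allow.

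Windows of a RefSeq promoter table ran from 250 bases before to 50 after each start (build GRCh38.p14). They were used for 7 of the 10 genes: SLC3A2, GCLC, GCLM, GPX4, CHAC1, CTH and CBS, with 13 windows between them. SLC7A11 and GSS had no entry, and no sequence was used for GSR. The windows were searched on both strands for TGATGNAA, the core of the amino acid response element read by ATF4, and for TGACNNNGC and TGAGNNNGC, the core of the antioxidant response element read by NRF2. TGATGNAA was in 2 of the 13 windows, and in 3.62% of all 35116 windows of the table. One of the antioxidant forms was in 5 of the 13, and in 29.1% of all windows. The 2 families of motif did not overlap each other in these windows. A match is a description of the letters and not a bound site. A window without a match does not show that the gene lacks the motif, since bases outside the windows were not searched.

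The bases before the most downstream of the 3 annotated SLC3A2 starts, on the plus strand, are printed with TGACTCAGC, an antioxidant core on the gene's own strand, in capitals. The second line gives 30 bases after that start, with TTACATCA in capitals, which is TGATGNAA read on the opposite strand.
SLC3A2 chr11:62881449-62881698: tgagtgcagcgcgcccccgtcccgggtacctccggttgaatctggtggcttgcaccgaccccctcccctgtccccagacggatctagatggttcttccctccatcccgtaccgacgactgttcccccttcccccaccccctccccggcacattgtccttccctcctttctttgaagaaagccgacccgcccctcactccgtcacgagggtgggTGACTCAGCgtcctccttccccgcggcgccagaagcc
SLC3A2 chr11:62881719-62881748: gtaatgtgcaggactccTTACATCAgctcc

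CBS and CTH are the enzymes of transsulfuration: CBS joins homocysteine and serine into cystathionine, and CTH cuts cystathionine to release cysteine. Both were low in control cells and higher in knockdown cells. CTH (chromosome 1, 70411218 to 70439851, plus strand, ENSG00000116761) was at 15.4, 17.8 and 16.9 CPM in knockdown and 4.04, 4.65 and 4.78 CPM in control. CBS (chromosome 21, 43053191 to 43076943, minus strand, ENSG00000160200) was at 16.9, 14.2 and 16.5 CPM in knockdown and 5.32, 4.68 and 7.23 CPM in control. Neither gene had a knockdown library within the control range. CTH rose by 1.89 ± 0.12 (SE) on the log2 scale, 3.71-fold (adjusted p = 3.16e-21, edgeR quasi-likelihood). CBS rose by 1.47 ± 0.12 (SE), 2.78-fold (adjusted p = 3.29e-15, edgeR quasi-likelihood). Within their abundance class, 98.5% had a lower log2 fold change than CTH and 97.2% a lower one than CBS.

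The GRCh38 annotation lists a near-identical copy of CBS on the same chromosome, CBSL, and reads may be split between the 2 rows. Whether these cells carry such a copy is not known here. CBSL held 8, 11 and 10 counts in knockdown and 2, 6 and 4 in control, beside 501, 359 and 422 counts of CBS in knockdown and 174, 152 and 209 in control. Summing the rows left the CBS log2 fold change at 1.47. Reads that fit both copies may have been left out of both rows, since how they were treated is not known here. The ratio of CTH to CBS per kilobase was 2.55, 3.53 and 2.88 in knockdown libraries and 2.13, 2.79 and 1.86 in control libraries. These overlap, with an exact two-sided permutation p of 0.2. Since the smallest p possible here is 0.1, this test cannot settle whether the rises of the pair differ in size.

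The CTH and CBS windows that held a motif are shown so that they can be set beside those of the other risen genes. The CTH line (plus strand) has TGAGACTGC in capitals, and the CBS line (minus strand, from the most upstream of 3 annotated starts) has GCGCGGTCA in capitals, which is TGACNNNGC on the opposite strand. Neither held TGATGNAA.
CTH chr1:70411018-70411267: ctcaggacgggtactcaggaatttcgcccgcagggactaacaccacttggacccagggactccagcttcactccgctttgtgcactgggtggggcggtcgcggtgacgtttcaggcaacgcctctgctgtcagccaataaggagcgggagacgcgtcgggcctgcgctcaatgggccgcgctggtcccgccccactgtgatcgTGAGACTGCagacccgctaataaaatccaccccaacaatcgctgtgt
CBS chr21:43076378-43076627: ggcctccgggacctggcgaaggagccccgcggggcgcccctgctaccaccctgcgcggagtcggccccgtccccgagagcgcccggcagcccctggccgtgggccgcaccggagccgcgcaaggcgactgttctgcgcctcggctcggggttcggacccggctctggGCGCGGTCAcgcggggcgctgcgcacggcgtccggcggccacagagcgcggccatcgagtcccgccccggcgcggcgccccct

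Glutamate-cysteine ligase carries out the first and rate-limiting step of glutathione synthesis, and its subunits moved in opposite directions. GCLC, the catalytic subunit (chromosome 6, 53497341 to 53616970, minus strand, ENSG00000001084), was at 70.7, 63.4 and 71.7 CPM in knockdown and 50.8, 52.2 and 53.3 CPM in control. GCLM, the modifier subunit that raises the activity of GCLC (chromosome 1, 93885205 to 93909456, minus strand, ENSG00000023909), was at 40.7, 47.2 and 40.3 CPM in knockdown and 77.6, 75.5 and 77.7 CPM in control. Every knockdown library was above every control library for GCLC and below every one for GCLM. GCLC rose by 0.40 ± 0.05 (SE) on the log2 scale (adjusted p = 2.57e-09, edgeR quasi-likelihood). GCLM fell by 0.85 ± 0.06 (SE), 1.80-fold lower (adjusted p = 1.30e-20, edgeR quasi-likelihood). In their abundance classes, 5.37% of genes had a lower log2 fold change than GCLM, and 82.7% a lower one than GCLC.

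Per kilobase of exon, GCLC was at 7.93 ± 0.526 and GCLM at 7.88 ± 0.713 CPM per kb in knockdown, where the pair did not differ beyond the spread of the libraries. In control GCLC was at 6.03 ± 0.145 and GCLM at 14.2 ± 0.233 CPM per kb (SD, n = 3). The ratio of GCLC to GCLM was 1.09, 0.842 and 1.12 in knockdown libraries and 0.410, 0.433 and 0.430 in control libraries. The ratio was 2.37-fold higher in knockdown, with no overlap between groups and an exact two-sided permutation p of 0.1, the smallest that the design allows. The second knockdown library had the lowest GCLC and the highest GCLM of its group. Exons of GCLC share 6.2% of their bases with other annotated genes, and those of GCLM share 0.0%.

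The window of GCLM held antioxidant cores and that of GCLC held none of the searched motifs. Bases outside the window were not searched, so this does not show that GCLC lacks such a motif elsewhere. In the GCLM line (minus strand) GCTTAGTCA and GCTCCCTC are in capitals, which are TGACNNNGC and TGAGNNNGC on the opposite strand; the last base of the second falls on the start itself and is not shown. The GCLC line (minus strand) has no capitals.
GCLM chr1:93909431-93909680: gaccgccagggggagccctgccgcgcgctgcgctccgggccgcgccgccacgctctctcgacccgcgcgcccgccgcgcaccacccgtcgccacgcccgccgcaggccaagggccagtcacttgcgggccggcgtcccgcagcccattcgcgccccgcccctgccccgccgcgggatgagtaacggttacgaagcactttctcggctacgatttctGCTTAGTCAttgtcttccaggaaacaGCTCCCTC
GCLC chr6:53545102-53545351: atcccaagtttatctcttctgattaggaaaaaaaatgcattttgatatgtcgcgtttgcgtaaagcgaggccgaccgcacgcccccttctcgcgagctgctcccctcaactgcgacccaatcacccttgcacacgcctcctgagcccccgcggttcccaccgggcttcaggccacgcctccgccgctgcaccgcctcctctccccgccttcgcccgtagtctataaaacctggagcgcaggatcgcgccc

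GSS, glutathione synthetase, adds glycine in the second step of synthesis. It lies on chromosome 20, 34928433 to 34956027, minus strand (ENSG00000100983). It was at 112, 117 and 112 CPM in knockdown and 117, 118 and 116 CPM in control, and the groups overlapped. The difference was -0.043 on the log2 scale, 95% interval -0.12 to 0.04 (adjusted p = 0.377, edgeR quasi-likelihood). Scaled by library size only, GSS passed the test at 0.11 (adjusted p = 0.0139, edgeR quasi-likelihood). Per kilobase, the ratio of GSS to GCLC was 2.33 ± 0.218 in knockdown and 3.14 ± 0.0908 in control (SD, n = 3).

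GSR, glutathione reductase, uses NADPH to return oxidised glutathione to its reduced form. It lies on chromosome 8, 30678061 to 30727999, minus strand (ENSG00000104687). It was at 71.8, 69.4 and 63.1 CPM in knockdown and 67.4, 65.0 and 72.8 CPM in control, with the ranges nearly covering each other. The difference was -0.0051 on the log2 scale, 95% interval -0.11 to 0.10 (adjusted p = 0.941, edgeR quasi-likelihood). Scaled by library size only, GSR passed the test at 0.15 (adjusted p = 0.0126, edgeR quasi-likelihood).

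GPX4 is the selenium-containing peroxidase that reduces lipid peroxides with glutathione, and is the enzyme whose loss triggers ferroptosis. It lies on chromosome 19, 1103926 to 1106791, plus strand (ENSG00000167468). It was at 189.6, 218 and 199 CPM in knockdown and 216, 215 and 229.7 CPM in control. The second knockdown library lay inside the control range and the other two lay under it. GPX4 was called lower by edgeR's quasi-likelihood test, but by only 0.12 on the log2 scale (95% interval -0.20 to -0.04; adjusted p = 0.00743). The call was lost without control replicate 3 (-0.10, adjusted p = 0.0646 by that test) or without knockdown replicate 1 (-0.080, adjusted p = 0.0987), and with library size alone the value was 0.032. Of its family, GPX8, a peroxidase of the endoplasmic reticulum, rose by 1.24, with 73.6 ± 4.04 CPM in knockdown and 31.1 ± 1.14 in control (SD, n = 3). GPX2 and GPX3 were not called, at -0.46 and 0.08, and GPX1, GPX5, GPX6 and GPX7 had too few counts to be tested.

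CHAC1 cleaves glutathione inside the cell into 5-oxoproline and cysteinylglycine, and its RNA is a widely used sign of the amino acid stress response. It lies on chromosome 15, 40952962 to 40956519, plus strand (ENSG00000128965). It was at 85.9, 95.3 and 99.3 CPM in knockdown and 14.2, 15.7 and 17.8 CPM in control. No knockdown library came near the control range. The log2 fold change was 2.56 ± 0.07 (SE), 5.88-fold (adjusted p = 2.54e-35, edgeR quasi-likelihood), and 99.7% of genes in its abundance class had a lower one. CHAC2, the paralog that breaks down glutathione at a slow and steady rate, was at 19.04, 16.9 and 17.8 CPM in knockdown and 17.6, 18.3 and 16.8 CPM in control. It did not pass the test, at 0.026 on the log2 scale (95% interval -0.15 to 0.20; adjusted p = 0.813, edgeR quasi-likelihood). The ratio of CHAC1 to CHAC2 per kilobase was 2.90, 3.62 and 3.59 in knockdown libraries and 0.517, 0.552 and 0.680 in control libraries, so CHAC1 was the more abundant of the pair in each knockdown library and the less abundant in each control library. The exact two-sided permutation p was 0.1, the smallest possible here.

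The window of CHAC1 was 1 of the 2 that held TGATGNAA. It is shown for that reason, with TTGCATCA in capitals, which is TGATGNAA on the opposite strand, beginning 209 bases before the start.
CHAC1 chr15:40953221-40953470: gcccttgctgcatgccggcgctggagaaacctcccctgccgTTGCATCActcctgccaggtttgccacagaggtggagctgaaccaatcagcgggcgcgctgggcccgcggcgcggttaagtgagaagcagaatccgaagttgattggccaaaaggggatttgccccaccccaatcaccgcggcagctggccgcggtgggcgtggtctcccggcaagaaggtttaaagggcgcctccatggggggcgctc

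**Figure D2:**
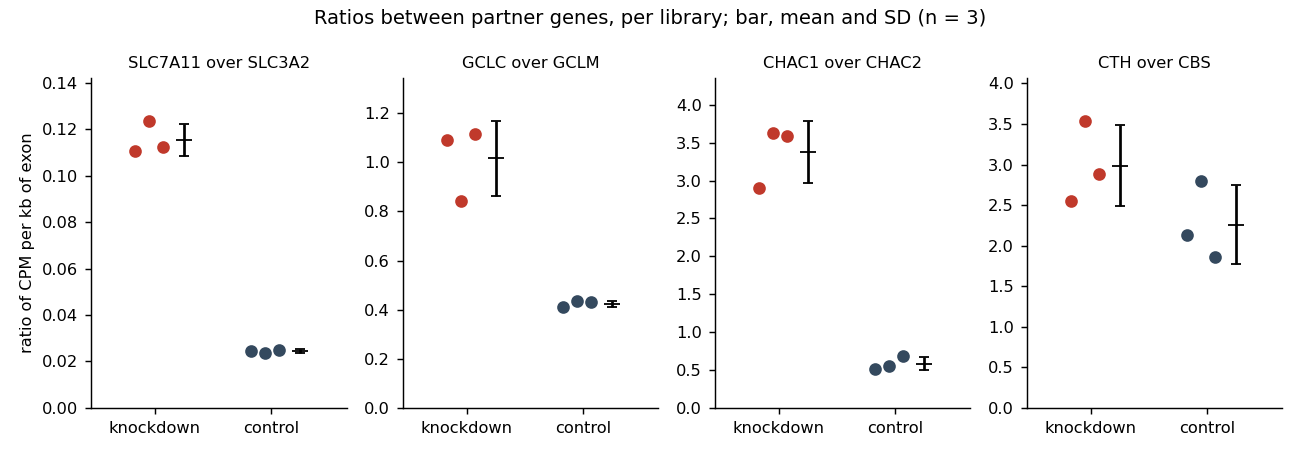
Ratio of per-kilobase levels (y axis, no unit, from 0) for 4 pairs of partner genes in the 3 knockdown and 3 control libraries; points are libraries and bars are the mean with its SD (n = 3). Knockdown and control libraries do not overlap for SLC7A11 over SLC3A2, GCLC over GCLM and CHAC1 over CHAC2, and overlap for CTH over CBS.

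The order of the 10 genes by level also differed between groups. Per kilobase, GPX4 was the highest in both, at 100.3 ± 7.27 CPM per kb in knockdown and 109 ± 4.07 in control, followed by SLC3A2. CHAC1 came next in knockdown at 45.4 ± 3.34, but was sixth in control at 7.74 ± 0.870. GSS and GSR came next to each other in both groups, at 18.4 ± 0.443 and 18.1 ± 1.19 CPM per kb in knockdown and at 18.9 ± 0.185 and 18.2 ± 1.07 in control, and did not differ beyond their spread. SLC7A11 was ninth in control at 1.06 ± 0.0548, next to CBS at 0.847 ± 0.196. Their spreads overlapped, but SLC7A11 was above CBS in each control library, narrowly in control replicate 3 (1.127 against 1.066). In knockdown SLC7A11 was sixth, and its 8.68 ± 0.933 overlapped the spread of GCLC and GCLM. It was above GCLM in each knockdown library, but not above GCLC in each. CTH was at 6.91 ± 0.510 in knockdown and 1.86 ± 0.164 in control, and CBS was last in both groups, at 2.34 ± 0.221 in knockdown (all SD, n = 3). Exon lengths here are the union of all exons in GENCODE v29, so a gene with long, little used exons is set too low on this scale. CBS may also be set too low, since reads that fit CBSL as well may have been left out.

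**Figure D3:**
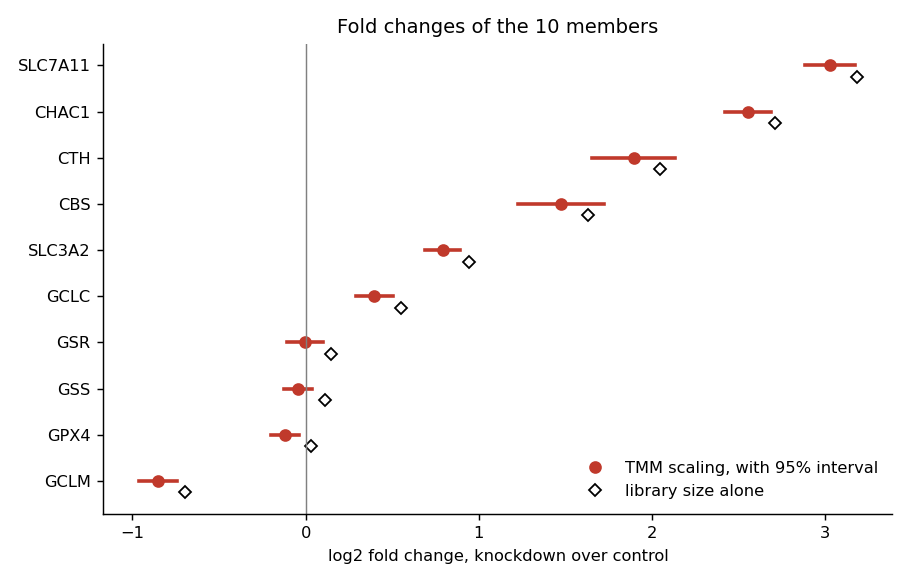
Log2 fold change of knockdown over control (x axis) for the 10 genes, ordered by value; circles with lines are the TMM-scaled estimate and its 95% interval, and open diamonds are the estimate with library size alone. Each diamond lies to the right of its circle, and those of GSS, GSR and GPX4 lie on the other side of 0.

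Of the factors known to act on these genes, NFE2L2 rose modestly at the RNA level and ATF4 was not called. ATF4, whose protein is known to be set largely at translation, was at 325, 317 and 332 CPM in knockdown and 328, 336 and 355 CPM in control. Its difference was -0.064 on the log2 scale (95% interval -0.13 to 0.00) (adjusted p = 0.0925, edgeR quasi-likelihood). NFE2L2 was at 156, 152 and 168 CPM in knockdown and 122, 126 and 126 CPM in control, and rose by 0.35 ± 0.04 (SE) (adjusted p = 3.11e-11, edgeR quasi-likelihood). Its groups did not overlap, though 20.9% of its exonic bases are shared with other annotated genes.

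**Figure D4:**
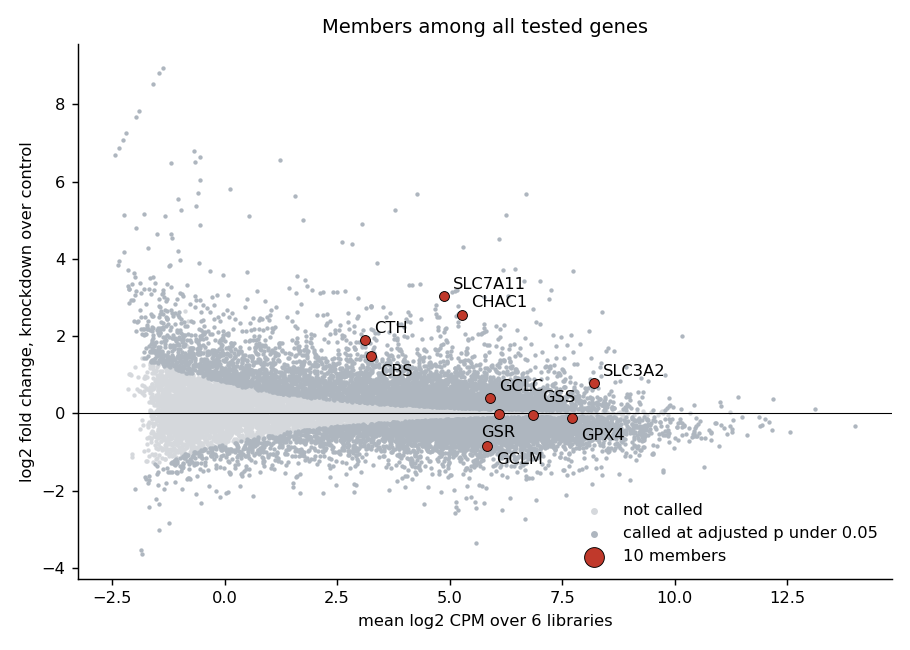
Log2 fold change of knockdown over control (y axis) against mean log2 CPM over 6 libraries (x axis) for 17223 tested genes, with called genes in darker grey and the 10 genes in red. SLC7A11 and CHAC1 lie near the upper edge of genes of like abundance, CTH, CBS and SLC3A2 lie high, and GSS, GSR and GPX4 lie near 0.

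The rest of the pathway was described with 14 lists of genes, some of which hold members. Outside the 10 genes, 138 listed genes were tested, of which 44 rose and 58 fell, with a median log2 fold change of -0.06. That is 31.9% higher and 42.0% lower, against 30.7% and 30.9% of all tested genes. Falls were more frequent among abundant genes in general: in the most abundant of the 5 classes, 919 of 3445 genes rose and 2079 fell, with a median of -0.20. No list as a whole was tested, and nothing is claimed as particular to one.

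Of 11 tested transporters of cystine, cysteine and glutamate, 7 rose and 0 fell, with a median of 0.28. Without SLC7A11 and SLC3A2 there were 5 rises among 9, where 30.7% of all tested genes rose. SLC1A3 (EAAT1), a glutamate importer, rose by 3.20 at a low level, with 11.6 ± 3.45 CPM in knockdown and 1.24 ± 0.318 in control (SD, n = 3). SLC1A4, which carries serine, alanine and cysteine, rose by 1.17. SLC7A5 (LAT1), another light chain of SLC3A2, rose by 0.25, with 492 ± 19.02 CPM in knockdown and 414.5 ± 13.1 in control. CTNS, which lets cystine out of lysosomes, was not called, at 0.15.

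Of 12 tested genes of the methionine cycle and transsulfuration, 6 rose and 4 fell, with a median of 0.09. CTH and CBS had the largest rises of this list. AHCY, which makes the homocysteine that CBS uses, fell by 0.71, with 352 ± 20.1 CPM in knockdown and 575 ± 16.1 in control. MTRR, which keeps methionine synthase active, fell by 0.63. Of 9 genes for cysteine breakdown, taurine and sulfide, 6 rose and 1 fell, with a median of 0.30. SQOR, which oxidises sulfide in mitochondria, rose by 1.00, and MPST, which makes sulfide, fell by 0.51. Exons of SQOR share 28.5% of their bases with other annotated genes.

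Among 7 genes for serine and glycine supply, which feed CBS and GSS, 4 rose and 3 fell. PSAT1 rose by 1.23 and PHGDH, the first enzyme of serine synthesis, by 1.05, while PSPH, the last, fell by 1.56 with 23.03 ± 1.42 CPM in knockdown and 67.8 ± 2.49 in control. Of 11 genes for glutamine and glutamate, 6 rose and 3 fell, with a median of 0.15, and GLUD1 fell by 0.70. PSAT1 and GOT1 stand on 2 lists each.

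All 6 genes of the glyoxalase and related list were tested, and 5 fell and 0 rose, with a median of -0.59. PTGES2, a prostaglandin E synthase, fell by 0.74, with 55.1 ± 2.45 CPM in knockdown and 91.9 ± 2.77 in control (SD, n = 3). GLO1, which clears methylglyoxal with glutathione, was at 272 ± 3.33 CPM in knockdown and 424 ± 9.07 in control. Of 13 glutathione S-transferases, 5 fell and 1 rose, with a median of -0.08. GSTP1, a cytosolic enzyme of that family, fell by 0.35, and GSTA4 rose by 0.80. GSTZ1, which also acts in tyrosine breakdown, fell by 0.49, with 18.98 ± 1.696 CPM in knockdown and 26.7 ± 1.06 in control. Of 11 glutaredoxins and thioredoxin genes, 7 fell and 2 rose, with a median of -0.22. GLRX5, a mitochondrial glutaredoxin for iron-sulfur clusters, fell by 1.71, with 57.1 ± 1.21 CPM in knockdown and 187 ± 2.78 in control (SD, n = 3). TXNRD2, the mitochondrial thioredoxin reductase, rose by 0.58, with 85.7 ± 1.53 CPM in knockdown and 57.3 ± 3.14 in control. TXNRD1, the cytosolic one, was not called, at -0.02.

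Of 8 tested genes for glutathione degradation, 3 rose and 2 fell, with a median of 0.12. Apart from CHAC1, GGT7 and ANPEP rose by 0.59 and 0.29, and GGCT, which acts on gamma-glutamyl peptides, fell by 0.64, with 27.6% of its exonic bases shared with another annotated gene. Of 10 transporters for glutathione conjugates and for glutathione into mitochondria, 6 fell and 2 rose, with a median of -0.23. SLC25A39, the mitochondrial glutathione carrier, fell by 0.82, with 57.7 ± 2.69 CPM in knockdown and 101.7 ± 3.13 in control. SLC25A40, its paralog, fell by 0.29. ABCC3, an exporter of conjugates, rose by 0.65, with 5.75 ± 0.554 CPM in knockdown and 3.65 ± 0.156 in control.

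Of 15 genes for NADPH, which GSR needs, 9 fell and 4 rose, with a median of -0.37. PGD of the pentose phosphate pathway fell by 0.80. IDH2, the mitochondrial NADPH-making isocitrate dehydrogenase, fell by 1.01, with 4.03 ± 0.435 CPM in knockdown and 8.12 ± 0.633 in control. ALDH1L2, a mitochondrial folate enzyme that makes NADPH, rose by 2.31, with 33.8 ± 4.81 CPM in knockdown and 6.79 ± 0.527 in control (SD, n = 3). Of 20 genes for lipid peroxide defence and ferroptosis, 7 rose and 10 fell, with a median of -0.18. TFRC, the transferrin receptor, fell by 1.04, with 509 ± 7.13 CPM in knockdown and 1048 ± 13.99 in control. NCOA4, which brings ferritin to lysosomes, rose by 1.20, and ACSL4, which loads membranes with oxidisable fatty acids, rose by 0.97. FTL rose by 0.92 and FTH1, the other ferritin chain, was not called at -0.06; both have many processed pseudogenes, and 62.4% of the exonic bases of FTH1 are shared with BEST1, so their counts are uncertain. Of 9 genes for making selenoproteins such as GPX4, 2 rose and 3 fell, with SEPSECS at 0.88 and SEPHS1 at -0.71.

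**Figure D5:**
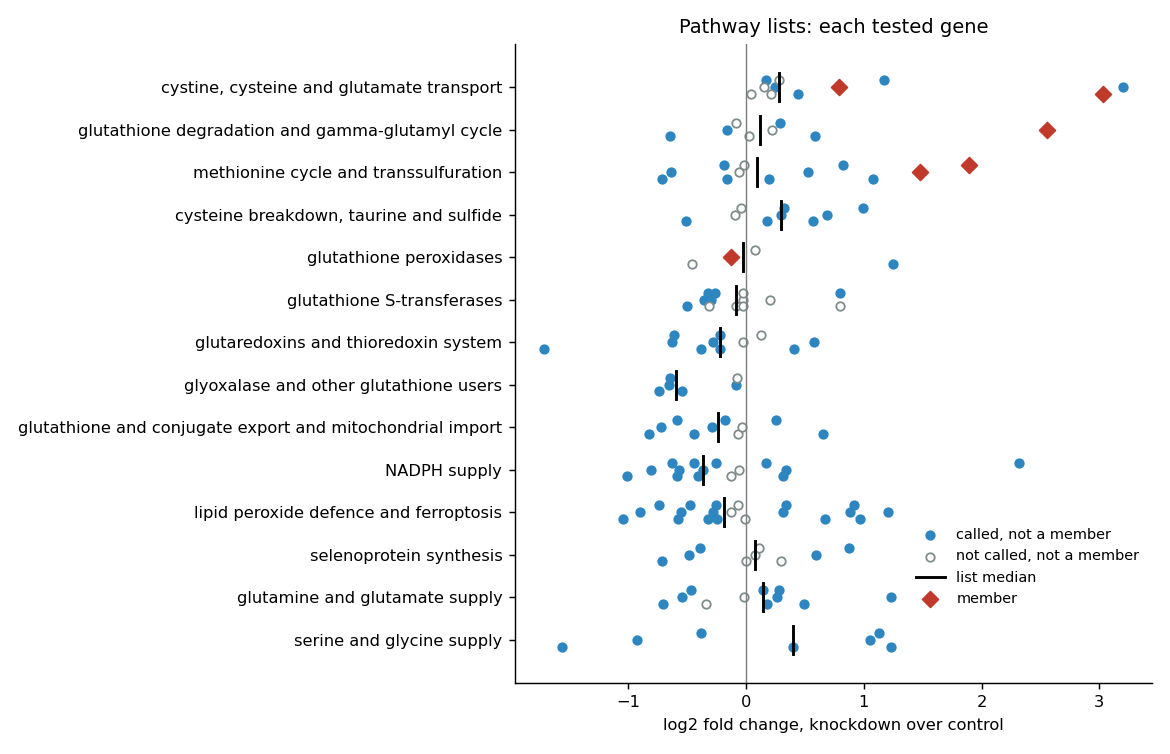
Log2 fold change of knockdown over control (x axis) of each tested gene in 14 pathway lists; filled circles were called, open circles were not, red diamonds are members, and the black bar is the list median. The transport list holds no called fall, the glyoxalase list no called rise, and SLC7A11 and CHAC1 stand far from their list medians.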

How the data were processed

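RNA of 3 knockdown and 3 control libraries was analysed from 1 table of raw counts by Ensembl identifier, which the authors deposited with no scaling. The submitters' processing notes name featureCounts 2.0.1, STAR 2.7.0d, DESeq2 1.30.1 and Trim Galore 0.6.6 and the build hg38, without settings. The annotation, the strand option and the handling of multi-mapped reads were not given in the sources used. Of 60617 identifiers, 42000 were named from a gene name table and 16605 from GENCODE v29 (GRCh38), which gave positions, exon lengths and overlaps. Promoters came from RefSeq. The members and lists were chosen with earlier results of these data known.

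Genes were filtered with filterByExpr (minimum count 10) of edgeR 4.0.16 in R 4.3.3, scaled by TMM, and tested by the robust quasi-likelihood test with group as the only term, adjusted over 17223 genes. Standard errors and 95% intervals were derived from the test statistic. Log2 CPM used a prior count of 2. Library totals ran from 24231515 to 34306849 counts. The common biological coefficient of variation, the variation between libraries of a group beyond counting noise, was 4.67%. Libraries of a group differed by more than sampling noise (chi-square per degree of freedom 2.80 to 4.68). In simulated counts for knockdown against control (16468 genes), the test called 89 of 100 genes given a log2 change of 1, 77 of 100 given 0.5, and 7 of 16268 left unchanged. Changed genes were few there and split evenly between rises and falls, whereas 61.6% of genes were called in the data. The simulation therefore cannot say how often calls are false under so broad a change, or how far they depend on scaling. Besides the 10 genes, the text names, from each list, the largest called rise and fall at a mean log2 CPM of at least 1, with CHAC2, CBSL, ATF4 and NFE2L2; other genes were named after their values were seen. Alternatives were other scalings, no filter, DESeq2 1.42.0, a non-robust fit, a replicate block, thinning to the smallest library, CBS summed with CBSL, and leaving out each library.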

Additional observations from a re-analysis of the deposited data

How the results depend on the processing

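The direction and call of SLC7A11, SLC3A2, CHAC1, CTH, CBS, GCLC and GCLM held under each of the 14 alternatives run for all members. Log2 fold changes spanned 2.97 to 3.18 for SLC7A11, 0.72 to 0.94 for SLC3A2, 2.48 to 2.71 for CHAC1, 1.81 to 2.05 for CTH, 1.34 to 1.66 for CBS, 0.36 to 0.55 for GCLC and -0.94 to -0.70 for GCLM. GPX4, GSS and GSR lie close to 0 and followed the scaling. With library size alone GPX4 was at 0.032, GSS at 0.11 and GSR at 0.15; with upper-quartile factors GPX4 was at -0.061, GSS at 0.017 and GSR at 0.055, and only GSS and GSR under library size were called. Thinning put GSR at 0.011. Leaving out 1 library gave -0.19 to -0.080 for GPX4 and -0.050 to 0.040 for GSR. The cause was not tested. Members called lower numbered 1 with either of those scalings and 1 to 2 on leaving out 1 library, and members called higher 6 to 8 over all settings. Pathway genes outside the members numbered 40 to 52 higher and 45 to 62 lower, and all genes 4575 to 6986 higher and 3855 to 5401 lower.

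List counts that moved by over 1.5 times were small. With library size alone, glutaredoxins and thioredoxins had 4 higher, against 2; transferases had 3 lower, against 5; degradation had 1 lower, against 2; the methionine list had 2 lower, against 4; and selenoprotein synthesis had 5 higher, against 2, or 4 with upper-quartile factors. GPX4 took its list to 0 lower with the same settings that lost its call. Without a filter 1 transporter was lower, against 0. Without control replicate 2, transferases had 2 higher, against 1. Conjugate export had 1 higher, against 2, with DESeq2, no filter, thinning, or without knockdown replicate 1 or any control replicate.

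A fit with a replicate block called 5214 genes higher and 5263 lower, and 6 members were higher and 2 lower, with SLC7A11 at 3.02 and GPX4 at -0.12. The pairing of libraries by number was checked on their deviations from the group mean, whose correlations were -0.000751, -0.00642 and -0.0235. The check ran over all tested genes, where counting noise can hide a shared culture or day, so pairing is not excluded. The labels give no more than a shared number.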
